A study of Mus musculus with 2 samples.

Results

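Ccr7, Cd83, Cd40, Cd80, Cd86, Cd274, Fscn1, Relb, Il4i1 and Socs2, a set of dendritic cell (DC) maturation and costimulation genes, were taken by symbol from the feature lists of both matrices, where all 10 were found among 26124 genes. They were followed in single cells of the mouse spleen to ask which DCs carried them, in which combinations, and whether this differed in sickle cell disease (SCD). The data came from 2 droplet libraries (10x Genomics 3' chemistry, counted as unique molecular identifiers, UMIs), of which 1 was made from an SCD mouse and 1 from a control named wild-type by the study, each after other spleen cells had been depleted with magnetic beads to enrich DCs. Both mice were homozygous for Hbatm1Paz, a targeted null of the alpha globin genes, and both carried the human globin transgene Tg(HBA-HBBs)41Paz, which includes a sickle beta chain. The control was heterozygous for Hbbtm1Tow, the targeted beta globin locus, and hemizygous for the transgene, and did not sickle. The SCD mouse was homozygous for both, which is the Berkeley model. The mice of the study were 12 to 16 weeks old. With 1 library per genotype there was no replicate and no test was possible, and every interval in brackets covers counting error at 95% only.

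DCs sample antigen in an immature state and then mature, in a program that is driven by NF-kB and that also runs at a low rate without infection. Maturing DCs take up less antigen, move toward the T cell zones along chemokine gradients sensed by CCR7, and display costimulatory ligands beside MHC class II. The same program switches on inhibitory and enzymatic products that restrain T cells, so that a mature DC is not by itself an activating one. In the spleen the conventional DCs fall into cDC1, which cross-present antigen to CD8+ T cells, and cDC2, which mainly serve CD4+ T cells, while plasmacytoid DCs (pDCs) make type I interferon.

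The wild-type library held 10845 barcodes and the SCD library 13447, of which 9423 and 10635 passed the filters, with median depths of 4884 and 8282 UMIs. Of the barcode sequences, 88 were present in both libraries. In erythroid cells Hbb-bs was at 269170.0 CPM (counts per 1000000 UMIs of a class and library) in wild-type and at 2495 CPM in SCD, whereas Hba-a1 was at 104259 and 85160.1 CPM although both mice were labelled as null for it. Clusters were built and named without any of the 10 genes, and the names were rebuilt here. Conventional DCs numbered 2655 in wild-type and 719 in SCD, and pDCs 818 and 656. Of the conventional DCs, 18.3% in wild-type and 28.8% in SCD lay in DC sub-clusters that stayed unnamed. All values over conventional DCs include them. The leading genes of unnamed sub-clusters 7 and 12 included the neutrophil genes Camp and S100a8. Those of 8 and 18 included the monocyte genes F13a1 and Fn1. Neutrophils remained after the enrichment and were 46.3% of the kept cells in wild-type and 67.5% in SCD. Within conventional DCs the summed level of 16 neutrophil markers was 9164 CPM in wild-type and 32599 CPM in SCD, with 14 of 16 markers higher in SCD and none at 0. Monocyte markers summed to 2080.0 and 3340.0 CPM, with 11 of 14 higher in SCD, and red pulp macrophage markers to 282 and 138 CPM, with 1 of 13 higher, and the part of these markers in the results below was not tested. The levels of the 10 genes in neutrophils are therefore given beside those in DCs. The neutrophil marker sums were lower in the named subtypes than over conventional DCs in both libraries. They were 602 and 3954 CPM in cDC1, and those of cDC2 and mature DC-like cells are given below.

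CCR7 is the chemokine receptor that guides DCs to the T cell zone, and fascin, encoded by Fscn1, bundles the actin of the long processes of mature DCs. Ccr7 (chr11:99144196-99155077, minus strand, GRCm38) was at 219 CPM (213 to 225) in wild-type and at 122 CPM (114 to 130.1) in SCD conventional DCs, a ratio of 0.559 (0.521 to 0.599). Fscn1 (chr5:142960343-142973185, plus strand) was at 272 CPM (265 to 278) and 119 CPM (112 to 127), a ratio of 0.440 (0.410 to 0.471). Both genes were lower in the SCD library. Most of this signal came from few cells, as mature DC-like cells gave 80.8% (wild-type) and 76.3% (SCD) of the Ccr7 UMIs of conventional DCs, and 74.2% and 76.6% of the Fscn1 UMIs. In neutrophils Ccr7 was at 1.76 CPM in wild-type and 0.399 CPM in SCD, and Fscn1 was at 2.01 and 0.549 CPM.

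CD40 receives the T cell signal CD40L, CD80 and CD86 (also called B7-1 and B7-2) engage CD28 and CTLA-4, and Cd274 encodes PD-L1, the inhibitory ligand of PD-1. Cd40 (chr2:165055627-165072948, plus strand) was at 79.1 CPM (75.5 to 82.8) in wild-type and 33.3 CPM (29.4 to 37.6) in SCD conventional DCs, a ratio of 0.421 (0.369 to 0.480). Cd80 (chr16:38455561-38496335, plus strand) was at 50.3 CPM (47.5 to 53.3) and 22.6 CPM (19.4 to 26.2), a ratio of 0.449 (0.381 to 0.527). Cd274 (chr19:29367455-29388095, plus strand) was at 132 CPM (127 to 137) and 49.3 CPM (44.5 to 54.5), a ratio of 0.374 (0.335 to 0.416). These 3 were lower in SCD, whereas Cd86 was the exception of the 10. Cd86 (chr16:36603869-36666081, minus strand) was at 77.4 CPM (73.9 to 81.1) in wild-type and 93.5 CPM (86.8 to 100.5) in SCD, a ratio of 1.21 (1.11 to 1.32). Neutrophils held Cd80 at 33.7 CPM in wild-type and 5.70 CPM in SCD, and Cd274 at 30.05 and 2.66 CPM, so that these levels differed between the libraries in the same direction. Cd40 was at 0.690 and 0.366 CPM and Cd86 at 7.53 and 3.76 CPM there. With the full neutrophil level of each library subtracted, the log2 ratio of Cd80 went from -1.15 to 0.03. That of Cd274 went from -1.42 to -1.13. The 16 neutrophil markers summed to 300876 and 452493 CPM in neutrophils, against 9164 and 32599 CPM in conventional DCs. The full level is therefore more than these markers would remove, and the loss of the Cd80 difference is no estimate of the neutrophil part.

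CD83 stabilizes MHC class II and CD86 at the surface of mature DCs. IL4I1 is a secreted amino acid oxidase that dampens T cell growth, RelB is the NF-kB subunit of the noncanonical pathway that is needed for DC maturation, and SOCS2 restrains cytokine receptor signaling through JAK and STAT proteins. Cd83 (chr13:43784775-43803132, plus strand) was at 269.7 CPM (263 to 277) in wild-type and 141 CPM (133 to 149.7) in SCD conventional DCs, a ratio of 0.523 (0.490 to 0.558). Relb (chr7:19606217-19629438, minus strand) was at 414 CPM (406 to 422) and 179.5 CPM (170.3 to 189), a ratio of 0.434 (0.410 to 0.459). Both were lower in SCD, as were the enzyme and the signaling inhibitor. Il4i1 (chr7:44816387-44840809, plus strand) was at 354 CPM (347 to 362) and 149 CPM (141 to 158), a ratio of 0.422 (0.396 to 0.448). Socs2 (chr10:95385362-95417180, minus strand) was at 139.5 CPM (135 to 144) and 52.4 CPM (47.4 to 57.7), a ratio of 0.375 (0.338 to 0.416). Neutrophils held all 4 at lower levels than conventional DCs, with Relb at 21.02 and 5.92 CPM, Il4i1 at 5.52 and 1.35 CPM, Cd83 at 3.83 and 0.615 CPM and Socs2 at 1.004 and 0.216 CPM in wild-type and SCD. Il4i1 shares 97 exonic bases with Nup62 on the same strand, so its counts are less certain there. On the other strand Il4i1 shares 3423 exonic bases with Tbc1d17. Cd274 shares 511 with an annotated antisense RNA that is not among the counted genes. The effect of these opposite-strand overlaps was not tested.

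Over conventional DCs, 7 of the 10 genes were thus lower in SCD by 2-fold or more, beside 4.91% of the 3439 expressed genes (at least 50 CPM and 20 UMIs in 1 library or both). The median log2 ratio was -1.20 for the 10 genes and -0.12 for all expressed genes. With pDCs included, over all DCs, 9 of 10 were lower by 2-fold or more, and 8 of these were among the 9 that counted as expressed, beside 4.87% of 3551 genes. Over all kept cells, where the share of DCs and the level per DC enter together, all 10 were lower by 2-fold or more, 7 of them expressed, beside 16.4% of 3327 genes. The median log2 ratio of the 10 there was -2.98, and the lowest ratio was that of Il4i1, at 142 CPM in wild-type and 13.4 CPM in SCD.

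**Figure D1:**
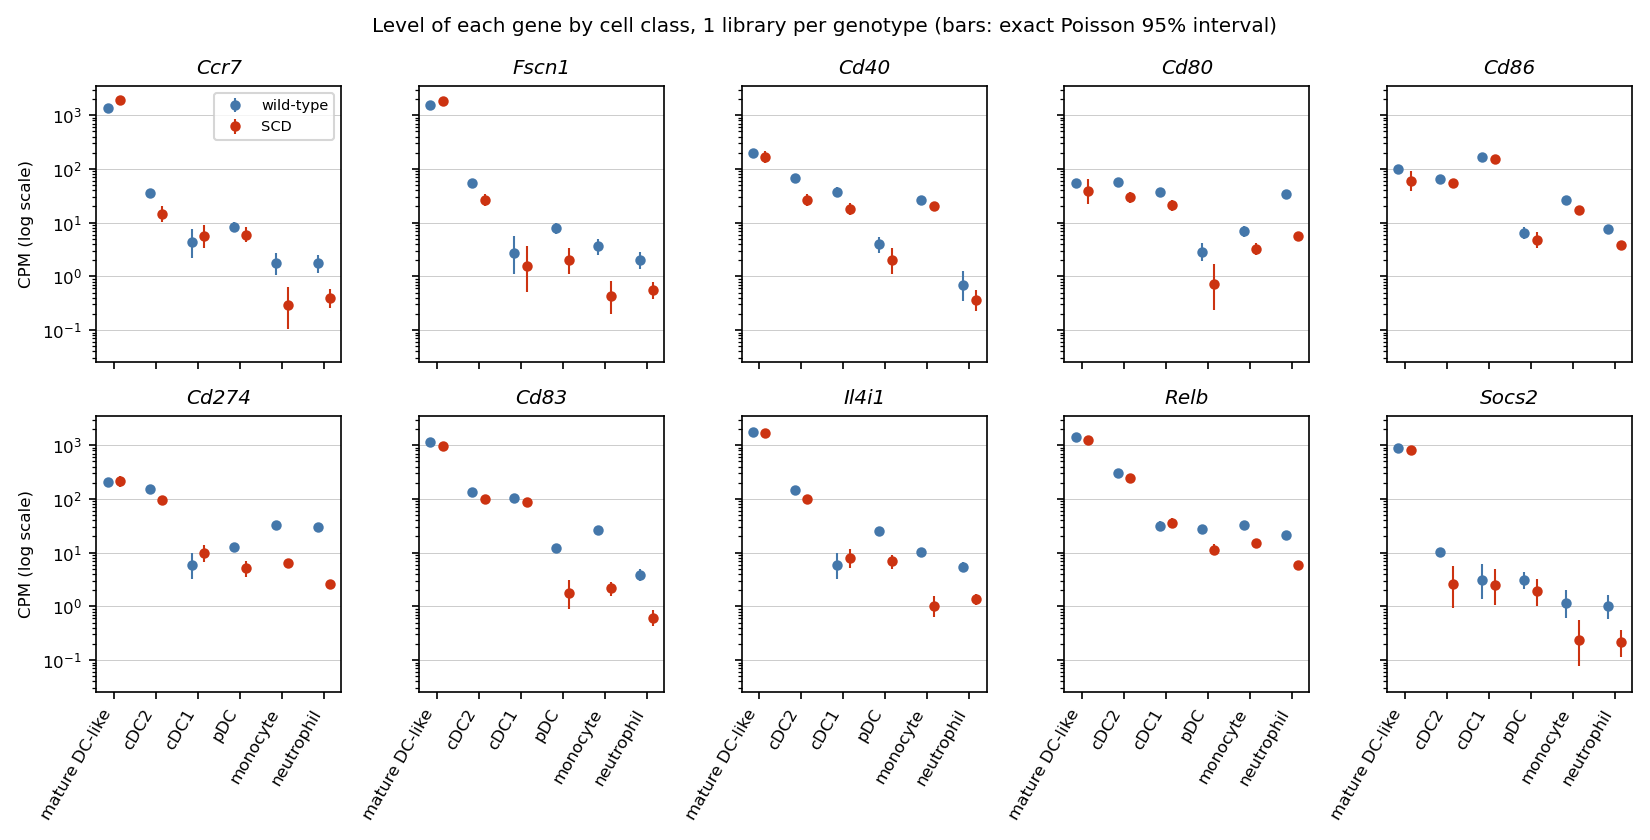
Level of each gene (CPM, log scale) in 6 cell classes of the wild-type (blue) and SCD (red) library, with exact Poisson 95% intervals, 1 library per genotype. Ccr7, Fscn1, Cd83, Il4i1, Relb and Socs2 were highest in mature DC-like cells in both libraries.

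Mature DC-like cells, named from 20 other markers of maturation, numbered 460 in wild-type and 57 in SCD, which was 17.3% and 7.93% of the conventional DCs. Sub-cluster 16, of 74 wild-type and 19 SCD cells, also scored highest for these markers but stayed unnamed. It had a median of 2272 UMIs and is not counted here. In the mature DC-like cells Ccr7 was at 1367 CPM in wild-type and 1900.4 CPM in SCD, a ratio of 1.39 (1.28 to 1.504). Fscn1 was at 1561 and 1867 CPM, a ratio of 1.20 (1.10 to 1.29). These ratios pool sub-clusters of unequal weight, number 3 with 408 wild-type and 31 SCD cells and number 17 with 52 and 26. In sub-cluster 3 alone the ratio was 0.984 (0.854 to 1.13) for Ccr7 and 0.783 (0.676 to 0.902) for Fscn1, and in sub-cluster 17 alone it was 1.497 (1.34 to 1.67) and 1.36 (1.22 to 1.51). The migration genes were thus higher in SCD in sub-cluster 17 but not in sub-cluster 3, where Fscn1 was lower, and neutrophil markers were higher in SCD in both, at 1064 and 6610.5 CPM in sub-cluster 3 and 1606 and 5636 CPM in sub-cluster 17. Socs2 was at 890.4 and 800.3 CPM, with a ratio of 0.899 (0.796 to 1.01) that was 0.631 (0.508 to 0.775) in sub-cluster 3 and 1.10 (0.931 to 1.30) in sub-cluster 17, and Il4i1 was at 1777 and 1684 CPM, with a ratio of 0.948 (0.872 to 1.03). Relb was at 1409 CPM in wild-type and 1225 CPM in SCD, a ratio of 0.870 (0.789 to 0.957), and Cd83 at 1139 and 952 CPM, a ratio of 0.835 (0.748 to 0.931). Within sub-cluster 3 the Relb ratio was 1.02 (0.895 to 1.16) and the Cd83 ratio 0.850 (0.725 to 0.991). Cd40 was at 196 CPM (179.9 to 212) and 167 CPM (128 to 213), and Cd274 at 205 CPM (189 to 222) and 214 CPM (170.0 to 265), so that these intervals overlapped. Cd80 and Cd86 rested on 15 and 23 SCD UMIs, with ratios of 0.717 (0.392 to 1.22) and 0.614 (0.383 to 0.940). None of the 10 was past 2-fold in mature DC-like cells, beside 4.18% of 3323 expressed genes that were lower and 3.52% that were higher in SCD, and the median log2 ratio was -0.18. In these cells the neutrophil markers summed to 1159.5 CPM in wild-type and 6066 CPM in SCD, with 15 of 16 higher in SCD, and their part was not tested.

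In cDC2 the result depended on cells that had first clustered with pDCs. The class numbered 1598 wild-type and 285 SCD cells, of which 52 in each library (sub-cluster 14) lay in the pDC class, where none of the 10 genes reached 50 CPM. They gave 603289 of 13093867 UMIs in wild-type and 572318 of 2330523 in SCD, and 12 pDC markers summed to 752 CPM in wild-type and 2067 CPM in SCD cDC2, with all 12 higher in SCD. Over the whole class 2 of 8 expressed members, Cd40 and Fscn1, were lower by 2-fold or more, beside 0.569% of 3515 genes. In the 1546 and 233 cDC2 that lay among the conventional DCs, a split added after seeing the data, pDC markers summed to 549 and 465 CPM, and 1 of 8 expressed members, Cd40, was lower by 2-fold or more, beside 0.38% of 3423 genes.

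In the whole class Cd40 was at 67.9 CPM in wild-type and 26.6 CPM in SCD, a ratio of 0.392 (0.298 to 0.507), and without sub-cluster 14 at 70.6 and 35.3 CPM, a ratio of 0.499 (0.380 to 0.646). Fscn1 had ratios of 0.481 (0.364 to 0.626) and, without sub-cluster 14, 0.615 (0.465 to 0.799). Both genes were lower in SCD either way, Fscn1 by less than 2-fold without these cells. Relb was at 303 and 249 CPM with a ratio of 0.821 (0.751 to 0.896), and without sub-cluster 14 at 317 and 326 CPM with a ratio of 1.03 (0.941 to 1.12), so that its difference was not seen there. Cd274 had ratios of 0.612 (0.530 to 0.703) and 0.770 (0.667 to 0.885), and Cd83 of 0.723 (0.627 to 0.830) and 0.914 (0.793 to 1.05). Ccr7 and Socs2 lay under the 50 CPM minimum in cDC2, with Ccr7 at 35.4 CPM in wild-type and 14.6 CPM in SCD and Socs2 at 10.1 and 2.57 CPM. Even without sub-cluster 14 the libraries lay largely in different sub-clusters, number 0 with 757 wild-type and 7 SCD cells and number 9 with 3 and 171. Neutrophil markers summed there to 1010.2 CPM in wild-type and 5011 CPM in SCD, with 13 of 16 higher in SCD, and their part was not tested.

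In cDC1 (163 wild-type and 222 SCD cells) Cd86 was at 168 CPM (153 to 185) in wild-type and 149.9 CPM (137 to 164) in SCD, its highest level among cDC1, cDC2, mature DC-like cells and pDCs. Cd83 was at 104 CPM (91.7 to 117) and 88.7 CPM (78.7 to 99.6). These were the 2 members expressed in cDC1 and neither was past 2-fold, beside 0.5% of 3000 genes that were lower by that much. The Cd86 ratio was 0.891 (0.781 to 1.02) in cDC1 and 1.02 (0.837 to 1.23) in the cDC2 among conventional DCs, whereas it was above 1 over conventional DCs, of which cDC1 made up 6.14% in wild-type and 30.9% in SCD. Ccr7, Fscn1, Il4i1, Socs2 and Cd274 each lay under 10 CPM in the cDC1 of both libraries.

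To compare both libraries at one makeup, the SCD level of each subtype was weighted by the share of UMIs that the subtype had among the wild-type conventional DCs, an arithmetic added after the levels had been seen. Mature DC-like cells entered as one subtype, with their sub-clusters pooled. So did the unnamed cells, 18.3% of wild-type and 28.8% of SCD conventional DCs. Their sub-clusters differed in weight between the libraries, as number 11 with 113 wild-type and 17 SCD cells and number 8 with 120 and 107. At that makeup the ratio of SCD over wild-type ran from 0.618 for Cd80 to 1.24 for Ccr7, with a median of 0.850, and none of the 10 was lower by 2-fold or more. Fscn1 came to 1.01, Il4i1 to 0.878, Relb to 0.872 and Cd40 to 0.625. Cd86 came to 0.925, on the other side of 1 from its ratio without weights.

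**Figure D2:**
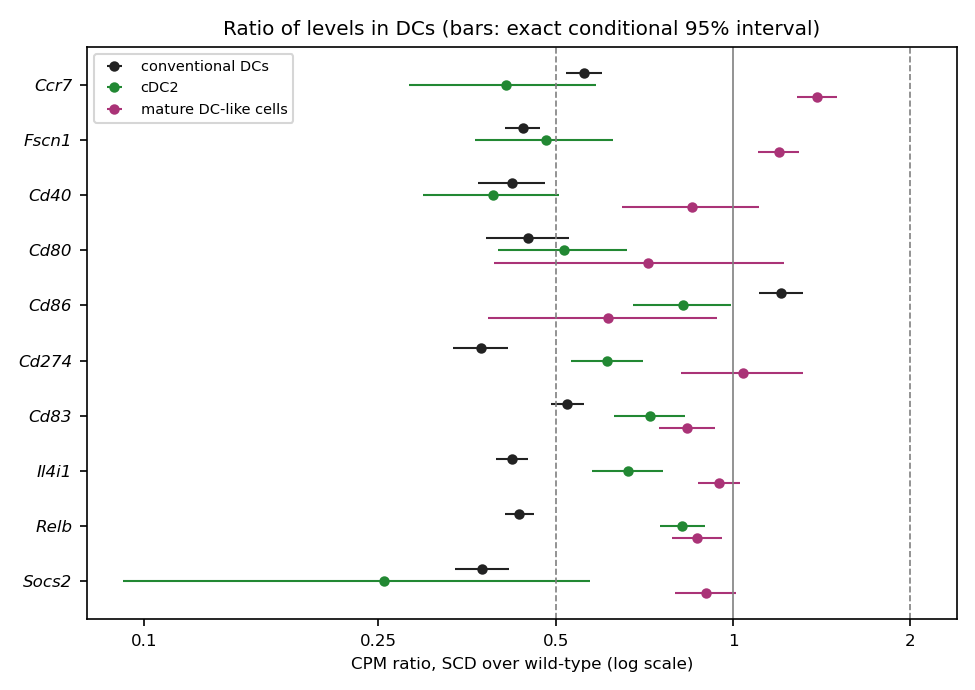
CPM ratio of SCD over wild-type (log scale) for each gene in conventional DCs (black), cDC2 (green) and mature DC-like cells (purple), with exact conditional 95% intervals and dashed lines at 2-fold. The cDC2 values include the cells that clustered with pDCs, and the mature values pool sub-clusters 3 and 17. The ratios of mature DC-like cells lay between 0.614 and 1.39, and those of conventional DCs between 0.374 and 1.21.

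Outside the DCs, 6 of the 10 genes were expressed in red pulp macrophages. Cd86 was at 216 CPM in wild-type and 269.8 CPM in SCD red pulp macrophages, with a ratio of 1.25 (0.957 to 1.62), and Cd83 was at 204 and 48.6 CPM, with a ratio of 0.238 (0.140 to 0.384). Relb was at 74.4 and 12.2 CPM with a ratio of 0.163 (0.0505 to 0.411), Il4i1 at 72.7 and 4.86 CPM with a ratio of 0.0669 (0.00784 to 0.257) and Cd274 at 62.3 and 29.2 CPM with a ratio of 0.468 (0.222 to 0.920). Of the 6, Cd83, Relb, Il4i1 and Cd274 were thus lower in SCD by 2-fold or more, beside 6.94% of 3847 genes. In these cells, of median depth 1308 and 1518 UMIs, 18 conventional DC markers summed to 6202 and 1939.6 CPM and the 20 mature DC markers to 415 and 168 CPM, and their part in these levels was not tested. Monocytes held Cd83 at 26.9 CPM in wild-type and 2.16 CPM in SCD. In B cells Socs2 was at 67.0 CPM in wild-type and 107 CPM in SCD, where the wild-type library held only 21 such cells. pDCs held all 10 under 30 CPM in both libraries, with Relb highest, at 27.7 and 11.4 CPM, where most pDCs of the libraries lay in different sub-clusters, number 1 with 643 wild-type and 3 SCD cells and number 2 with 7 and 448.

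The genes were next counted per cell, after each conventional DC had been thinned to 3000 UMIs, which left 2500 wild-type and 665 SCD cells and left out 155 and 54 shallower ones. A wild-type conventional DC had a UMI of 2.75 of the 10 genes on average and an SCD one of 1.58. The wild-type counts had 2 peaks, with 23.3% of cells at 1 gene, 5.48% at 5 and 7.84% at 6. The share of cells with 5 or more genes was 24.6% (22.9 to 26.3) in wild-type and 12.3% (9.93 to 15.1) in SCD, a ratio of 0.502 (0.405 to 0.622). The share with 2 to 4 genes, part way by this count, was 35.3% (33.4 to 37.2) and 21.2% (18.2 to 24.5), a ratio of 0.601 (0.514 to 0.702). Over these pooled subtypes both the fully and the partly equipped cells were thus a smaller share in SCD. Cells with 0 or 1 gene made up 40.2% and 66.5%. In cDC2, sub-cluster 14 included, the ratio was 0.721 (0.436 to 1.19) for 5 or more and 0.708 (0.593 to 0.846) for 2 to 4. Without sub-cluster 14, cDC2 with 0 or 1, 2 to 4 and 5 or more genes numbered 633, 718 and 127 in wild-type. The SCD numbers were 110, 89 and 16. In cDC1 the ratio for 2 to 4 was 0.522 (0.323 to 0.842). Without thinning, at median depths of 7651 and 10097 UMIs, 38.5% of wild-type and 19.3% of SCD cells had 5 or more and 46.3% and 43.8% had 2 to 4. The cut at 5 divides a continuous count, with 6.20% of wild-type and 3.16% of SCD cells at 4 genes. All 10 genes at once were found in 4.0 wild-type cells. In SCD 0 of 665 cells had 9 or more, which, taking 3 cells as the most that a count of 0 allows here and below, leaves room for a share of up to 0.451%.

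**Figure D3:**
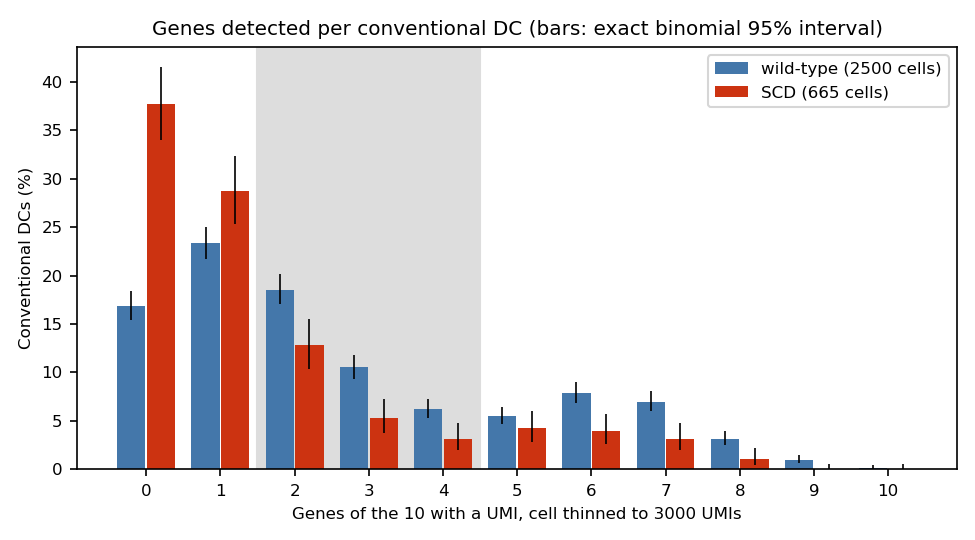
Share of conventional DCs (%) by the number of the 10 genes with a UMI, each cell thinned to 3000 UMIs, for 2500 wild-type (blue) and 665 SCD (red) cells with exact binomial 95% intervals; the grey band marks 2 to 4 genes. SCD cells were more frequent at 0 and 1 gene and less frequent at each count from 2 up.

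Mature DC-like cells held 6.72 genes per cell in wild-type and 6.43 in SCD, and 98.9% and 96.2% of these cells had 5 or more. The mean was 6.75 and 6.21 in sub-cluster 3 and 6.5 and 6.68 in sub-cluster 17. In sub-cluster 16, which stayed unnamed, it was 5.17 and 4.86. In cDC2 the mean was 2.00 in wild-type and 1.46 in SCD, or 2.06 and 1.795 without the 52 cells of each library that clustered with pDCs, and in cDC1 0.902 and 0.763. The gap in cDC2 was thus smaller without those cells. In pDCs, which lay largely in different sub-clusters, it was 0.238 and 0.110, and in neutrophils of 3000 UMIs or more 0.185 and 0.0596, with 0 of 1204 wild-type and 0 of 6042 SCD neutrophils at 5 or more genes, which allows shares of up to 0.249% and 0.0497%. At 2 to 4 genes neutrophils came to 2.08% and 0.199%. In both ranges neutrophils thus had lower shares than conventional DCs. The part of UMIs from other cells in the conventional DCs was not tested. Among cells with 5 or more genes, 71.2% and 62.2% were mature DC-like in wild-type and SCD and 20.7% and 19.5% were cDC2. Among cells with 2 to 4 genes, 81.4% and 63.1% were cDC2, and 22.1% and 4.96% belonged to a single cDC2 sub-cluster (number 4).

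Sub-cluster 4 numbered 343 wild-type and 20 SCD cells and held 3.66 and 4.61 genes per cell. Its leading genes by fold were Ryr3, Sucnr1, Cxcl10, Rem1 and Dtx1. In its wild-type cells Relb was at 716 CPM, Il4i1 at 517 CPM and Cd83 at 496 CPM, levels between those of all cDC2 and those of mature DC-like cells. Ccr7 was at 142 CPM, Fscn1 at 152 CPM and Socs2 at 37.9 CPM, against 1367 CPM, 1561 CPM and 890.4 CPM in wild-type mature DC-like cells. Relb, Il4i1 and Cd83 were thus nearer to their mature levels than the migration genes and Socs2 were. In the 20 SCD cells Relb was at 1210.4 CPM, Il4i1 at 879.5 CPM, Cd83 at 792 CPM and Ccr7 at 244 CPM, with ratios whose counting intervals lay above 1. Socs2 gave 1 UMI there. The cells with 2 to 4 genes had a mean of 14.9 neutrophil marker UMIs of 3000 in wild-type and 80.3 in SCD. Those with 5 or more had 15.3 and 47.4. The medians were lower, 3 and 15 with 2 to 4 genes and 3 and 17.5 with 5 or more. The part of these markers in the shares was not tested. Called doublets were 7.60% and 5.67% of the cells with 2 to 4 genes and 6.84% and 0% of those with 5 or more, the last being 0 of 82 cells, which allows up to 3.66%.

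Each gene was then set against the number of the other 9 with a UMI in the same cell, so that no gene entered its own scale. Relb was found at the lowest counts, in 29.2% of wild-type and 15.8% of SCD conventional DCs with none of the other 9, in 50.9% and 40.9% with 2, and in 95.3% and 92.98% with 5 or more. Il4i1 was found in 6.03% and 3.09% of cells with none of the others, in 45.5% and 55.7% with 3 or 4, and in 93.2% and 83.6% with 5 or more. Cd83 went from 8.28% and 7.72% to 37.2% and 46.8% and then to 84.0% and 82.5%. Ccr7, Fscn1 and Socs2 were found mainly at the highest counts. Ccr7 was found in 4.66% and 1.19% of cells with 2 others, in 21.2% and 29.6% with 3 or 4, and in 82.4% and 78.8% with 5 or more. Fscn1 was at 7.14% and 3.49%, then 28.3% and 31.3%, then 83.1% and 69.1%. Socs2 was at 0.642% and 0% with 2 others, at 10.7% and 22.7% with 3 or 4, and at 66.5% and 54.2% with 5 or more, where the 0 of 85 SCD cells with 2 others allows up to 3.53%. The steep step of these 3 genes was thus seen in both libraries.

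The B7 ligands were found in fewer cells at the highest counts than these 3 genes. Cd86 was found in 15.1% of wild-type and 21.8% of SCD cells with none of the other 9 and in 21.6% and 18.7% with 5 or more. Cd80 was at 12.5% and 5.28% in the first and at 14.3% and 7.89% in the last class. Cd274 was at 21.6% and 4.92%, highest with 3 or 4 others at 46.8% and 37.7%, and at 40.9% and 28.6% with 5 or more. The receptor gene Cd40 was at 11.6% and 4.92% with none, at 18.5% and 8.75% with 2, at 27.4% and 23.7% with 3 or 4 and at 36.2% and 34.7% with 5 or more others, highest in the last class in both libraries. The low counts held different subtypes, since cDC1 made up 11.9% and 40.5% and cDC2 63.0% and 24.9% of cells with 0 or 1 gene, and in cDC1 Cd274 was found in 2.61% and 2.42% and Relb in 11.8% and 11.6% of cells. Within the cDC2 among conventional DCs, cells with none of the other 9 had Relb in 38.6% (33.5 to 43.8) and 42.9% (31.1 to 55.3) and Cd274 in 31.0% (26.0 to 36.3) and 18.4% (8.76 to 32.0), and Cd40 in 11.5% (7.84 to 16.1) and 2.44% (0.0617 to 12.9), the last from 1 of 41 SCD cells. In neutrophils thinned to the same depth, from medians of 5006 and 8081 UMIs, Cd274 had a UMI in 3.99% and 0.480%, Cd80 in 5.81% and 1.41%, Relb in 4.40% and 1.95% and Cd40 in 0% and 0.0662% of cells, against medians of 7974 and 10548 UMIs in conventional DCs.

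**Figure D4:**
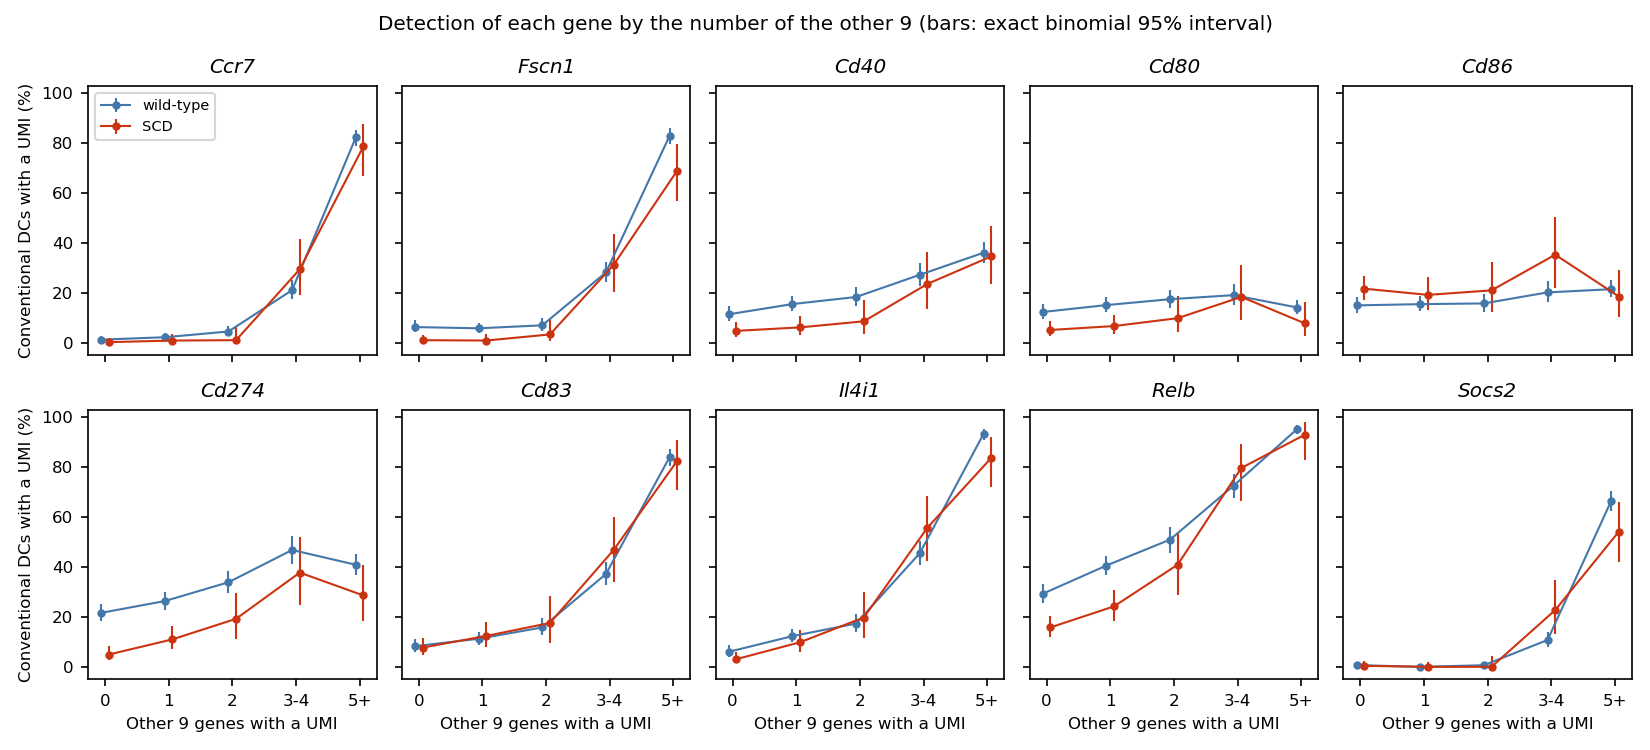
Share of conventional DCs with a UMI of each gene (%) by the number of the other 9 genes with a UMI, cells thinned to 3000 UMIs, wild-type in blue and SCD in red with exact binomial 95% intervals. Socs2, Ccr7 and Fscn1 stay under 8% up to 2 other genes in both libraries and pass 50% at 5 or more, while Cd80 and Cd86 stay under 36% throughout.

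The cells were also ordered without the 10 genes, by the summed UMIs of the 20 other mature DC markers among 3000. The share with 8 or more such UMIs was 30.7% (28.9 to 32.6) in wild-type and 15.6% (12.96 to 18.6) in SCD. Within this bin the cells held 5.57 and 5.26 of the 10 genes, and Ccr7 was found in 70.2% and 67.3%, Cd83 in 74.5% and 75.0%, Socs2 in 55.7% and 51.0% and Fscn1 in 70.6% and 63.5% of cells. Il4i1 was found there in 83.3% and 77.9%, Cd274 in 41.5% and 31.7% and Cd80 in 15.2% and 11.5% of cells. Relb was found in 89.7% and 84.6%. Cd40, in 33.5% and 37.5%, and Cd86, in 22.7% and 26.0%, were found more often in SCD. In the bin of 4 to 7 such UMIs, with 21.3% of wild-type and 16.2% of SCD cells, Ccr7 was found in 4.70% and 4.63% and Socs2 in 0.564% and 0.926%, whereas Relb was found in 48.7% and 49.1%. Cells with fewer marker UMIs held fewer of the 10 genes in SCD than in wild-type, 0.865 and 0.443 genes per wild-type and SCD cell with none and 1.27 and 0.670 with 1. In cells with none of the markers, 11.6% of wild-type and 30.2% of SCD cells, Cd274 was found in 11.1% and 2.49% and Relb in 22.8% and 9.95%. cDC1 made up 16.95% of these wild-type and 42.8% of these SCD cells, cDC2 40.8% and 10.4%, and unnamed cells 42.2% and 46.8%.

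For each of the 45 pairs the number of conventional DCs with both genes was divided by the number that independent detection would give. In wild-type 41 pairs and in SCD 39 pairs were found together more often than that. The highest value in both libraries was that of Ccr7 with Socs2, at 3.84 in wild-type and 7.69 in SCD, followed by Fscn1 with Socs2 at 3.41 and 7 and Ccr7 with Fscn1 at 3.05 and 6.82. The largest value a pair can reach is set by how rare its genes are, so that values of SCD and wild-type are not on one scale. Of wild-type cells with Socs2, 89.9% also had Ccr7 and 95.9% had Relb, and of SCD cells with Socs2 89.1% and 87.3% did. The lowest pair was Cd80 with Socs2 in wild-type, at 0.904, and Cd86 with Fscn1 in SCD, at 0.664. The B7 ligands thus held the lowest pairs in both libraries.

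**Figure D5:**
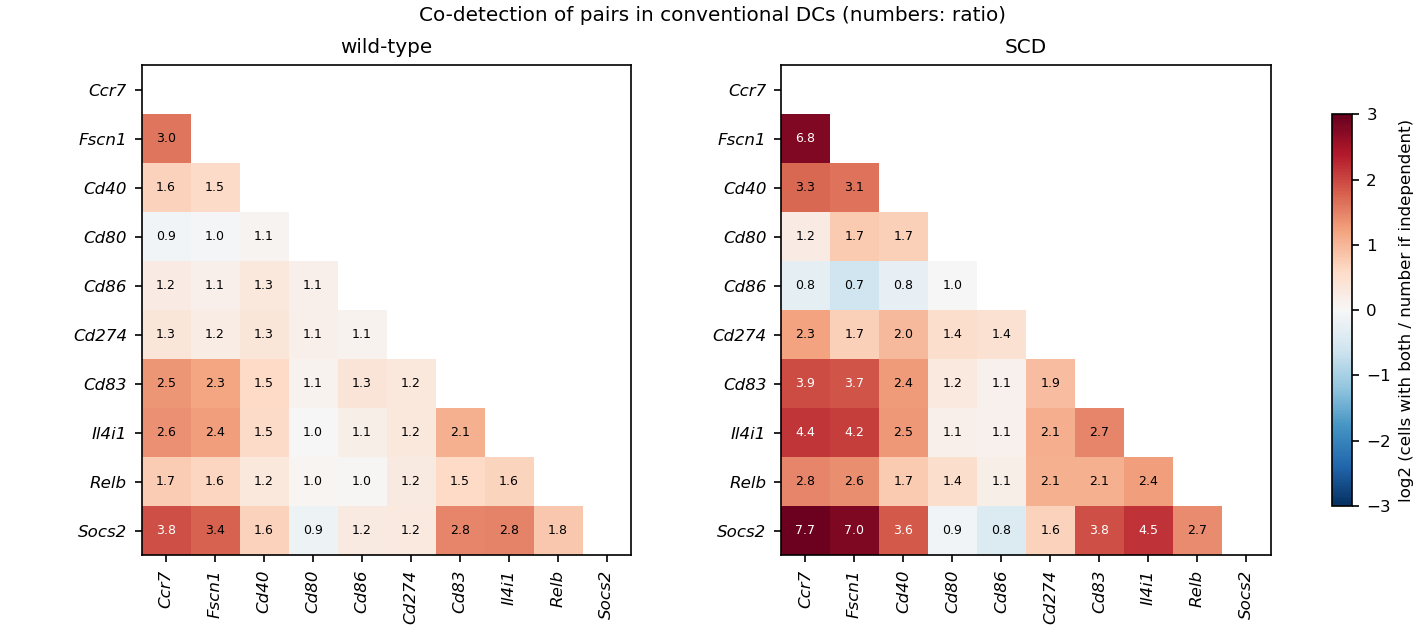
Cells with both genes of a pair over the number if the genes were independent, for conventional DCs of wild-type (2500 cells, left) and SCD (665 cells, right), with the ratio printed and its log2 as colour. Pairs among Ccr7, Fscn1, Socs2, Il4i1 and Cd83 had ratios from 2.09 to 3.84 in wild-type, above those of Cd80 and Cd86 with any gene.

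Promoter windows of GRCm38.p6 from RefSeq, with 250 bases before and 50 after the annotated start, were matched for 4 of the 10 genes, Fscn1, Il4i1, Cd80 and Cd274. Fscn1, which was found mainly in cells with many of the other genes, and Cd80, which was not, are shown for contrast, 5' to 3' on the plus strand, with motif matches in capitals.
Fscn1, chr5:142960105-142960404: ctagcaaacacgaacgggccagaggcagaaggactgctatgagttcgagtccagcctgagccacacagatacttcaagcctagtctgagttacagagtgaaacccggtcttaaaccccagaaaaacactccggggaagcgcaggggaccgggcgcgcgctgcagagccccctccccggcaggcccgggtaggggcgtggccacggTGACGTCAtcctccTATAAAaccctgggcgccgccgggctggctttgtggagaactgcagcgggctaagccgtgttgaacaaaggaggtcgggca
Cd80, chr16:38458683-38458982: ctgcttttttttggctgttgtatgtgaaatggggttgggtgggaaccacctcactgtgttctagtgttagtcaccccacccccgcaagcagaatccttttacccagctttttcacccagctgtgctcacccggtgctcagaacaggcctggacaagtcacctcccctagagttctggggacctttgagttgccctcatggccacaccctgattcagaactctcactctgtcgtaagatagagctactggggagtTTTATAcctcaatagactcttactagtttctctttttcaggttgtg
Both strands were searched for the cAMP response element TGACGTCA (in 1.79% of all 32851 windows), the TATA box core TATAAA (13.6%), the interferon-gamma activated site TTCNNNGAA (8.30%), the interferon-stimulated response element core, which is GAAA, any 2 bases and GAAA (3.44%), and the kappaB consensus (8.46%). The starts of the Fscn1 and Cd274 windows lay close to the gene starts given above, whereas those of Cd80 and Il4i1 lay 3372 and 19901 bases downstream of them, inside the genes, so that these windows belong to other starts. The Fscn1 window held TGACGTCA from base 206 and TATAAA from base 220 of the window, without overlap. The Cd80 window held the TATA box core on the minus strand from base 255, after the start. The windows of Il4i1 (chr7:44836038-44836337) and Cd274 (chr19:29367188-29367487) held none of these letters. GC content was 61.7% for Fscn1 and 49.7% for Cd80, against a median of 52.7% over all windows.

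Other genes of the pathway were read from 7 lists over conventional DCs. Of 14 expressed NF-kB subunits and regulators, 7 were lower in SCD by 2-fold or more, beside 4.91% of all expressed genes, and none was higher, and the median log2 ratio was -0.93. They included Tnfaip3, an inhibitor of NF-kB signaling, at 75.4 CPM in wild-type and 28.7 CPM in SCD (ratio 0.381), and Nfkbiz, a nuclear IkB protein gene, at 106 and 40.9 CPM (ratio 0.387). In the cDC2 among conventional DCs none of 13 expressed genes of that list was past 2-fold, as was true of all but 0.38% (lower) and 0.438% (higher) of 3423 genes, with a median log2 ratio of -0.31 against -0.04 for all expressed genes. In mature DC-like cells none of 15 expressed genes of that list was past 2-fold, a count near the 4.18% lower and 3.52% higher of all expressed genes there, with a median log2 ratio of 0.09. Of 13 expressed cytoskeleton and migration genes of mature DCs, 5 were lower and none higher, with a median log2 ratio of -0.75, among them Tmem123, at 678 and 273 CPM (ratio 0.403), and Mreg, which encodes melanoregulin, at 93.3 and 40.4 CPM (ratio 0.432). These lists hold 1 and 3 of the markers that named the mature DC-like cells.

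Of 5 expressed costimulatory and coinhibitory ligands other than the 10 genes, 2 were lower and 1 was higher, beside 4.91% and 2.33% of all expressed genes, shares that stand beside the other counts over conventional DCs as well. Icosl, the ligand of ICOS, was at 302 CPM in wild-type and 125 CPM in SCD (ratio 0.414), and Icam1, an adhesion ligand of LFA-1, at 251 and 117 CPM (ratio 0.467). Cd24a, which is also a surface marker of cDC1, was at 68.8 and 237 CPM (ratio 3.45). Of 4 expressed cytokines and chemokines, 1 was lower by 2-fold or more, the chemokine Ccl5, at 1719 and 628 CPM (ratio 0.365). None of 5 expressed genes of SOCS and cytokine receptor signaling was past 2-fold, with a median log2 ratio of -0.49. Of 12 expressed uptake genes of immature DCs, 4 were higher, against 2.33%, and none was lower, among them the scavenger receptor Cd36, at 25.9 and 76.5 CPM (ratio 2.95), and Mpeg1, which encodes perforin-2, at 251 and 635 CPM (ratio 2.53). Of 10 expressed immediate early and stress genes, 3 were lower, against 4.91%, among them Fosb, at 103 and 31.0 CPM (ratio 0.2999), and the phosphatase gene Dusp1, at 115 and 45.6 CPM (ratio 0.396). The summed level of this list, whose genes also respond to tissue dissociation, was 2756 CPM in wild-type and 1871 CPM in SCD conventional DCs, and its part in the results was not tested. The counts over conventional DCs mix subtypes whose shares differed between the libraries. Within the cDC2 among conventional DCs, in a split added after seeing the data, none of the expressed genes of the 7 lists was lower by 2-fold or more and 1 of 7 expressed uptake genes was higher, in a class where 0.38% of 3423 genes were lower and 0.438% higher, so that these counts say little about the lists.

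In mature DC-like cells 2 of 8 expressed cytokines and chemokines, 1 of 6 ligands, 1 of 7 genes of SOCS and cytokine receptor signaling and 1 of 5 uptake genes were higher by 2-fold or more, and 1 of 14 cytoskeleton and migration genes and 1 of 7 immediate early and stress genes were lower, beside 3.52% and 4.18% of genes. These counts pool sub-clusters 3 and 17, and the ligand Pvr, the chemokine Ccl22 and the receptor gene Il15ra, all higher in the pool, were among the 10 leading genes of sub-cluster 17, which held a larger share of the SCD cells. Il12b, which encodes the p40 chain of interleukin-12, was at 106 and 321 CPM with a ratio of 3.03 (2.44 to 3.74) in the pool, but of 1.62 (0.981 to 2.55) in sub-cluster 3 and 1.96 (1.49 to 2.56) in sub-cluster 17. Neither sub-cluster alone had an expressed cytokine or chemokine of the list that was higher by 2-fold or more. Sema7a, which encodes a semaphorin, was at 117 and 28.7 CPM with a ratio of 0.244 (0.121 to 0.442), and of 0.307 (0.123 to 0.640) in sub-cluster 3 and 0.491 (0.122 to 1.46) in sub-cluster 17, where it rested on 4 SCD UMIs. The lysozyme gene Lyz2, which monocytes and neutrophils also express, had a ratio of 2.86 (2.02 to 3.97) and 3.13 (2.10 to 4.69) in these sub-clusters, and monocyte markers summed to 325 and 633 CPM in mature DC-like cells.

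The genes whose level followed the number of the 10 genes most closely were read from the Pearson correlation over the 2500 wild-type and 665 SCD cells, averaged over the libraries, among 5902 genes. Cells of 1 library share their preparation and depth, so the values are descriptions. Etv3, a transcriptional repressor, came first with r of 0.79 and 0.77 in wild-type and SCD. It was at 2419 CPM in wild-type and 2414 CPM in SCD mature DC-like cells against 148 and 91.4 CPM in all cDC2. Gadd45b followed at 0.77 and 0.73, then Tmem123 at 0.75 and 0.68, Marcksl1 at 0.73 and 0.71, Traf1 at 0.68 and 0.74 and Swap70 at 0.66 and 0.65. Cacnb3, Birc2, Zfp36l1 and Tbc1d4 completed the 10 highest. Of these 10, Traf1, Cacnb3 and Tbc1d4 had served to name the mature DC-like cells. The 50 genes with the highest r in each library shared 39.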

How the data were processed

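The authors deposited raw UMI counts per gene and barcode for 1 wild-type and 1 SCD spleen library, made with the 10x Genomics 3' kit v3.1. The submitters' processing notes name Cell Ranger 4.0.0 and GRCm38.p6. The libraries held 97880318 and 189688217 UMIs. The members and gene lists were chosen with earlier results of these data known. Cells with 500 to 5000 genes, under 15% mitochondrial and under 30% ribosomal UMIs were kept. Doublets called with Scrublet (444 and 330 cells) were kept and left out in an alternative. Counts were scaled with scran 1.30.0 (R 4.3.3) and clustered in Scanpy 1.11.5 with Leiden on 2000 variable genes, 30 principal components and 15 neighbours at resolution 1, without the 10 genes. Clusters were named from marker lists that hold none of them, with a margin of 0.05 set while the data were at hand. Counts were summed by class and library and given as CPM with exact Poisson intervals, ratios with exact conditional intervals, and shares with Clopper-Pearson intervals (for a share of 0, 3 counts of the total are printed as the limit), and ratios of shares with Katz intervals. Cells share an animal and are no replicates. For detection each cell was thinned to 3000 UMIs. Named genes were the 10 members, the 2 genes of each list furthest from a ratio of 1 in each direction among those past 2-fold, and the 10 genes best correlated with the member count. Intervals and thinning were tested on simulated data. Alternatives were other gene minimums, scaling, resolution, thinning depth and denominators, the subtraction of neutrophil levels, and subsets of cells.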

Additional observations from a re-analysis of the deposited data

Results flagged for a closer look

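The ratios of the migration genes lay on opposite sides of 1 in cDC2 and in the pooled mature DC-like cells. Ccr7 had an SCD over wild-type ratio of 0.413 (0.282 to 0.585) in cDC2 and of 1.39 (1.28 to 1.504) in mature DC-like cells, so that the second ratio was 3.37 times the first. Fscn1 had an SCD over wild-type ratio of 0.481 (0.364 to 0.626) in cDC2 and of 1.20 (1.10 to 1.29) in mature DC-like cells, so that the second ratio was 2.48 times the first. The mature ratios pool sub-clusters 3 (408 wild-type and 31 SCD cells) and 17 (52 and 26). In sub-cluster 3 alone Ccr7 was at 0.984 (0.854 to 1.13) and Fscn1 at 0.783 (0.676 to 0.902), so that the opposite sides were not seen there, whereas in sub-cluster 17 they were at 1.497 (1.34 to 1.67) and 1.36 (1.22 to 1.51). Without the cells that clustered with pDCs the cDC2 ratios were 0.522 (0.357 to 0.740) and 0.615 (0.465 to 0.799). Both were picked out because the single SCD library was lower in one subtype and higher in the other, with counting intervals on either side of 1, and with 1 library per genotype the difference was not tested. In cDC2 the cells of the libraries lay largely in different sub-clusters.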

How the results depend on the processing

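No paired analysis was possible because there was 1 library per genotype, and for the same reason no library could be left out. Over all kept cells the median log2 ratio of the 10 genes, -2.98, was -3.08 with at least 1000 genes per cell, -2.58 with median-of-ratios scaling and -2.52 with a pseudocount of 5 CPM, which also gave -1.46 in DCs. In mature DC-like cells 1 of the 10 was lower by 2-fold or more at Leiden resolution 2 and 1, Cd80 with 0 SCD UMIs, in sub-cluster 17 alone. In cDC2 the median went from -0.83 to -0.49 and the number of the 10 genes lower by 2-fold or more from 4 to 2 without sub-cluster 14, a split added after seeing the data, as was sub-cluster 17 alone. With all kept cells as the denominator the ratio of the shares with 5 or more genes was 0.0842 (10.6% and 0.896%) and that with 2 to 4 was 0.101 (15.3% and 1.54%). Without Ccr7 and Cd83 the ratio for 5 or more was 0.374, and at 5000 UMIs that for 2 to 4 was 0.718. Added after seeing the data, leaving out the unnamed DC sub-clusters gave a median of -1.05 in conventional DCs, and the wild-type makeup of subtypes gave -0.24 with 0 genes lower by 2-fold or more and Fscn1 at 0.011. With the full neutrophil CPM subtracted, more than the neutrophil marker sums would remove, Cd80 was at 0.028. Without the expression minimum the background of genes lower by 2-fold or more was 28.9% over all kept cells, 8.48% in DCs, 9.05% in conventional DCs and 10.0% in mature DC-like cells. Of 130 values of single genes over 13 settings, 103 stayed within their counting interval, 25 moved beyond it, and 2 that were past 2-fold changed sign. At the wild-type makeup Ccr7 came to 0.32 and Cd86 -0.11, each on the other side of 0 from its value without weights. The number of SCD mature DC-like cells, 57, limits the precision there, and Cd80 and Cd86 rest on few UMIs in them. Except where the alternative's construction sets the value, the cause was not tested.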

Other observations

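Barcodes over the limit of 5000 genes were outside all comparisons. They numbered 517 in wild-type and 1436 in SCD. Of these, 295 and 1220 met the mitochondrial and ribosomal limits, and 4 (1.36%) and 2 (0.164%) of the latter had 5 or more of the 10 genes.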
